A study of Mus musculus with 4 samples.

Results

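Zbtb16, Sall4, Foxo1, Foxo3, Taf4b and Utf1 encode nuclear factors that are commonly listed as expressed throughout undifferentiated spermatogonia (A_undiff), whether stem cell or progenitor. These 6 genes, chosen by symbol, were followed among the 27514 genes that all 4 single-cell RNA-seq libraries list. A_undiff were sorted as E-cadherin+, CD49f+ (α6-integrin) and c-KIT- cells from testes of adult C57BL/6J wild-type mice of 6 to 8 weeks. CTRL mice were untreated, and BU mice had received a single busulfan dose of 10 mg/kg and were taken at day 10 (D10). Busulfan is an alkylating drug that kills differentiating spermatogonia and A_undiff, and at a low dose it spares some A_undiff that rebuild the lineage. Each library was made from the pooled cells of 3 mice, and experiments 1 and 2 yielded a CTRL and a BU library apiece, so that n = 2 libraries per group and differences between single mice cannot be seen. The labels give kit version 2 for experiment 1 and version 3.1 for experiment 2, while the paper's methods name version 2 alone.

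As background, stem and progenitor A_undiff differ in many genes, for example the GDNF receptor gene Gfra1 in stem cells and Sox3 in progenitors, and the receptor gene Kit rises as cells commit to differentiation. ZBTB16 (PLZF) and SALL4 are zinc finger factors that bind each other and recruit repressor complexes such as NuRD. FOXO1 and FOXO3 are forkhead factors that AKT phosphorylation moves out of the nucleus, and FOXO1 is needed for stem cell maintenance in the testis. TAF4B is a germ-cell form of a subunit of the general transcription factor TFIID, and UTF1 is a chromatin-associated protein known from pluripotent cells. On GRCm38 in GENCODE M21, Zbtb16 lies on chromosome 9 from 48654297 to 48836222, Sall4 on chromosome 2 from 168748332 to 168767943 and Foxo1 on chromosome 3 from 52268336 to 52353221. Foxo3 lies on chromosome 10 from 42181841 to 42276755 and Utf1 on chromosome 7 from 139943789 to 139945112.

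Of the 6 genes, Foxo1 and Utf1 were the ones that passed the main test between Sox3+ and Gfra1+ cells, and their RefSeq promoter windows (GRCm38.p6, plus strand, 250 bases before to 50 after the start) are shown for that reason. The Foxo1 window is chr3:52268087-52268386 and the Utf1 window chr7:139943606-139943905. Capitals mark the GC box letters GGGCGG and the CCAAT box letters CCAAT on either strand; neighbouring GC boxes may share a base.
Foxo1: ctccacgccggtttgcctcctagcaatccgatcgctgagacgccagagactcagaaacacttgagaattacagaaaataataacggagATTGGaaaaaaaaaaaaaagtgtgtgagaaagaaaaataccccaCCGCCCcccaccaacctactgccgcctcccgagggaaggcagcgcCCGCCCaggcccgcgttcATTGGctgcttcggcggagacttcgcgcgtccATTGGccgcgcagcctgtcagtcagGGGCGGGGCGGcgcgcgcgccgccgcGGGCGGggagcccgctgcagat
Utf1: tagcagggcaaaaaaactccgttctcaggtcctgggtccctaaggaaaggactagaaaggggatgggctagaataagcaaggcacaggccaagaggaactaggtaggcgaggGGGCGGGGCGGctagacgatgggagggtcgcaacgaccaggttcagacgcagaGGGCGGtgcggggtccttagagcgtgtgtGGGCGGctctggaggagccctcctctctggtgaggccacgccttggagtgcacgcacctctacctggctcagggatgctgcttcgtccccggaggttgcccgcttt
The Foxo1 window held 5 GC boxes and 3 CCAAT boxes, and the Utf1 window held 4 GC boxes and 0 CCAAT boxes. The window of Foxo3, which did not pass that test, held 5 GC boxes and 0 CCAAT boxes and is not printed, so GC boxes are not particular to the windows shown. Among 27025 promoter windows of the same length, 35.9% held at least 1 GC box and 37.9% at least 1 CCAAT box. The forkhead letters TGTTTAC, on either strand, occurred in 3.55% of all windows and at 0 positions of these 3 windows, which says only that the letters are not in them.

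Cells were kept when they had more than 1000 detected genes and when mitochondrial transcripts made up less than 20% of their UMIs (unique molecular identifiers, each counting 1 captured RNA molecule), which left 3101 cells in CTRL 1, 2008 in BU 1, 1120 in CTRL 2 and 1264 in BU 2. Median depth was 8066 and 9858 UMIs per cell in experiment 1 and 30931 and 34177 in experiment 2, from libraries of 21136369 to 53579969 UMIs. A cell was called Gfra1+, Sox3+ or Kit+ when the natural log of 1 plus 100000 times that gene's share of its UMIs was above 2 and the other 2 genes were not above it. A single UMI gave 2.60 and 2.41 on this scale at the median depth of CTRL 1 and BU 1, and 1.44 and 1.37 in CTRL 2 and BU 2, so classes were compared within libraries. Gfra1+ cells numbered 433, 729, 134 and 454 in CTRL 1, BU 1, CTRL 2 and BU 2, the order used throughout, and Sox3+ cells numbered 1299, 245, 552 and 128. Kit+ cells, which the c-KIT- gate should largely remove, numbered 10, 152, 15 and 53. Markers other than the class genes were checked: all 10 other genes of the stem list were lower, and all 5 other progenitor genes higher, in Sox3+ than in Gfra1+ cells.

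Several sums stood apart before any comparison. The 15 Kit+ cells of CTRL 2 held 23830 CPM of spermatid markers and 18685 CPM of somatic markers (CPM scales UMIs to a common total per sum), against 657 to 1504 and 34.8 to 134 in the Kit+ cells of the other libraries, and 14 of 23 somatic markers had a UMI there. Leaving out cells with over 0.1% somatic-marker or over 1% spermatid-marker UMIs kept 4 of those 15 cells. CTRL 2 and BU 2 also shared 70 passing cell barcodes, with a median of 2686 UMIs in CTRL 2 and 124289 in BU 2, while CTRL 1 and BU 1 shared 7 and BU 1 and CTRL 2 shared 1. Where leaving out the marker-bearing cells or the shared barcodes changed a call on the 6 genes, both values are given.

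All 6 genes had a UMI in every class of every library. Levels are given in CPM, the gene's UMIs in the summed cells scaled to a common total, and are not compared between genes. Zbtb16 stood at 196, 208, 182 and 131 in Gfra1+ cells, at 231, 231, 240 and 151 in Sox3+ cells and at 167, 97.3, 34.5 and 59.6 in Kit+ cells. In every library Kit+ cells were the lowest of the 3 classes. Sall4 stood at 178, 146, 126 and 107 in Gfra1+ cells and at 122, 118, 120 and 93.2 in Sox3+ cells, lower in Sox3+ cells in each library. Its Kit+ sums were 278, 79.5, 59.2 and 62.6, the first of them from 25 UMIs in 10 cells.

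Foxo1 stood at 152, 119, 80.2 and 72.7 in Gfra1+ cells, at 258, 165, 189 and 121 in Sox3+ cells and at 189, 101, 81.4 and 81.5 in Kit+ cells. Sox3+ cells were the highest class in all 4 libraries, while Gfra1+ and Kit+ cells changed order. Its relative Foxo3 stood at 73.5, 58.9, 45.6 and 39.3 in Gfra1+ cells, at 87.0, 53.8, 61.7 and 51.2 in Sox3+ cells and at 100.2, 34.8, 32.1 and 32.3 in Kit+ cells. The CTRL 1 Kit+ sum, which rests on 9 UMIs, was the highest of that library, and the Kit+ sums of the other libraries were the lowest of theirs.

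Taf4b, on chromosome 18 from 14783245 to 14900359 (GRCm38), stood at 53.1, 81.2, 58.0 and 68.4 in Gfra1+ cells, at 44.9, 63.3, 63.5 and 54.7 in Sox3+ cells and at 77.9, 63.8, 44.4 and 71.8 in Kit+ cells. No class was highest in all libraries. Utf1 stood at 8.95, 5.05, 4.20 and 3.90 in Gfra1+ cells, from 29, 39, 16 and 77 UMIs, and at 54.01, 18.9, 28.4 and 10.7 in Sox3+ cells, from 646, 48, 620 and 55 UMIs. The lowest Sox3+ sum was above the highest Gfra1+ sum. In Kit+ cells Utf1 stood at 55.7, 18.4, 2.47 and 4.62, from 5, 28, 1 and 11 UMIs. Without the marker-bearing cells it stood at 0 in the Kit+ cells of CTRL 2. Cells above the threshold for both Gfra1 and Sox3 held 34.9, 12.4, 13.4 and 3.69 CPM of Utf1, which lay between both single classes in CTRL 1, BU 1 and CTRL 2 and below both in BU 2, where they rest on 8 UMIs.

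**Figure D1:**
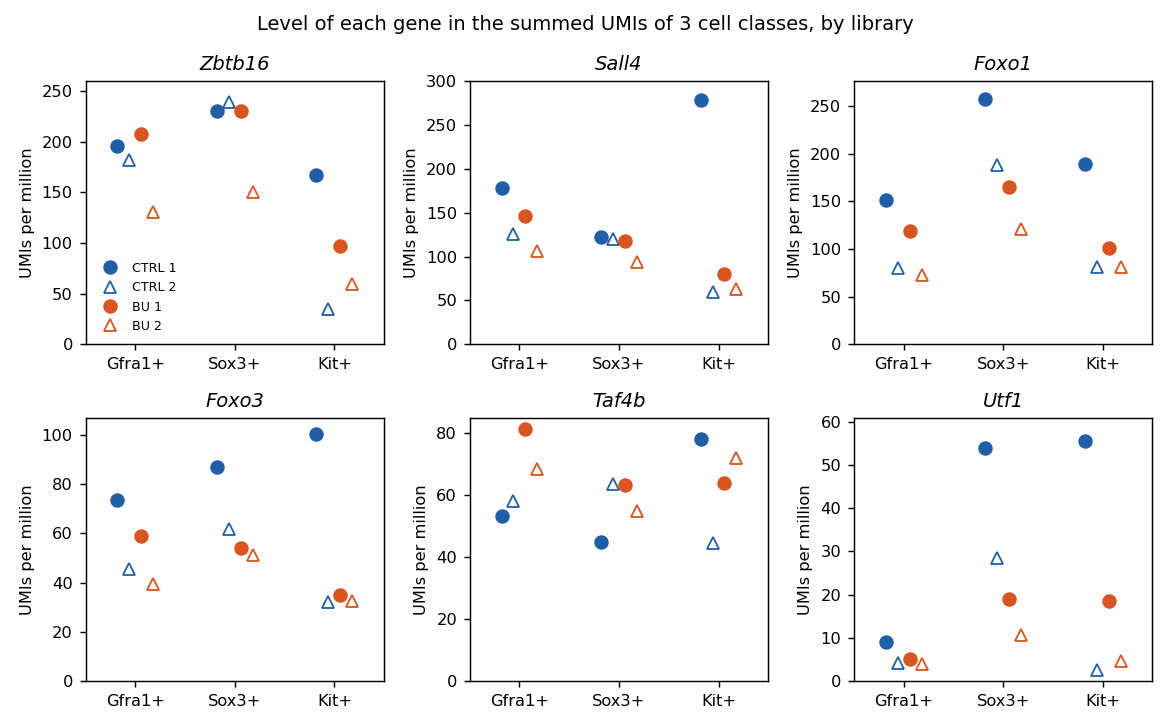
Level of each gene in CPM (y axis, from 0) in the summed Gfra1+, Sox3+ and Kit+ cells (x axis). Each point is 1 library, blue for CTRL and orange for BU, filled circles for experiment 1 and open triangles for experiment 2, without error bars; Utf1 points of Sox3+ cells lie at 10.7 to 54.01, above all 4 Gfra1+ points, and Foxo1 is highest in Sox3+ cells in every library.

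Between Sox3+ and Gfra1+ cells, Utf1 and Foxo1 were higher in Sox3+ cells and the other 4 genes did not pass the test. Utf1 was higher by 2.19 on the log2 scale (SE 0.34, edgeR quasi-likelihood test with library as a block, adjusted p = 0.00188), with ratios of 2.74 to 6.77 in the 4 libraries. Foxo1 was higher by 0.83 (SE 0.14, adjusted p = 0.00244), with ratios of 1.39 to 2.35. These 2 of 6 genes compare with 13.5% of 13273 genes called, 5.88% being called higher and 7.62% lower. Zbtb16 differed by 0.29 (95% interval -0.10 to 0.67, adjusted p = 0.321) and was higher in Sox3+ cells in 4 of 4 libraries. Sall4 differed by -0.24 (interval -0.67 to 0.19, adjusted p = 0.475), lower in 4 of 4 libraries. Foxo3 differed by 0.26 (interval -0.05 to 0.58, adjusted p = 0.268) and Taf4b by -0.16 (interval -0.47 to 0.15, adjusted p = 0.504).

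Without the somatic- and spermatid-marker cells, Zbtb16 (0.24, adjusted p = 0.0343), Sall4 (-0.30, adjusted p = 0.0286) and Foxo3 (0.26, adjusted p = 0.0494) passed as well. That filter raised the count over all genes too, from 1791 called in the main fit to 4476. Over all alternatives the adjusted p ran from 0.0343 to 0.755 for Zbtb16, from 0.0160 to 0.894 for Sall4, from 0.0494 to 0.756 for Foxo3, from 0.0353 to 0.989 for Taf4b and from 1.57e-07 to 0.0931 for Foxo1. Without CTRL 2, Sall4 (-0.35, adjusted p = 0.0160) and Taf4b (-0.31, adjusted p = 0.0353) passed, and without the library block Foxo1 did not (0.80, adjusted p = 0.0931).

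Kit+ cells held less Zbtb16, Foxo1 and Foxo3 than Sox3+ cells. Zbtb16 differed by -1.49 on the log2 scale (SE 0.21, adjusted p = 0.00410) and was lower in 4 of 4 libraries. Foxo1 differed by -0.80 (SE 0.15, adjusted p = 0.0122), also lower in 4 of 4, and Foxo3 by -0.66 (SE 0.18, adjusted p = 0.0365), lower in 3 of 4. These 3 of 6 genes compare with 14.4% of genes called, 6.81% being called lower and 7.58% higher. Sall4 differed by -0.40 (interval -0.90 to 0.11, adjusted p = 0.250), Utf1 by -0.93 (interval -1.85 to -0.01, adjusted p = 0.144) and Taf4b by 0.06 (interval -0.31 to 0.43, adjusted p = 0.947). Against Gfra1+ cells, where 23.5% of genes were called, Zbtb16 alone of the 6 passed, at -1.21 (SE 0.21, adjusted p = 0.00296) and lower in 4 of 4 libraries. There Foxo1 differed by 0.03 (interval -0.30 to 0.37, adjusted p = 0.937), Sall4 by -0.64 (adjusted p = 0.0666) and Utf1 by 1.26 (adjusted p = 0.0605). Foxo3 differed by -0.40 (adjusted p = 0.124) and Taf4b by -0.11 (adjusted p = 0.685) between these classes.

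The CTRL side of these comparisons rests on 10 and 15 Kit+ cells. Leaving out the marker-bearing cells raised the genes called from 1910 to 3571 against Sox3+ cells and from 3114 to 5132 against Gfra1+ cells. Without the marker-bearing cells, Zbtb16, Foxo1 and Foxo3 stayed called against Sox3+ cells (-1.43, -0.79 and -0.76), and Sall4 (-0.52, adjusted p = 0.0132) and Utf1 (-0.86, adjusted p = 0.0424) passed too; against Gfra1+ cells Sall4 (-0.82, adjusted p = 7.35e-05), Foxo3 (-0.50, adjusted p = 0.0167) and Utf1 (1.27, adjusted p = 0.00589) were added. Dropping 1 library ended some calls: Foxo1 against Sox3+ cells without BU 2 (-1.02, adjusted p = 0.0579), Foxo3 without BU 1 (-0.82, adjusted p = 0.0908) or BU 2 (-0.78, adjusted p = 0.132), and Zbtb16 against Gfra1+ cells without BU 1 (-1.39, adjusted p = 0.0538). Against Sox3+ cells Sall4 passed without CTRL 1 (-0.85, adjusted p = 0.0290) or CTRL 2 (-0.41, adjusted p = 0.0479), and against Gfra1+ cells Sall4 (-0.77), Foxo3 (-0.49) and Utf1 (1.34) passed without CTRL 2 and Sall4 (-0.98) without CTRL 1. For Foxo3 the call against Sox3+ cells was also lost with classes set on thinned counts (-0.48, adjusted p = 0.0725). Over all alternatives the adjusted p against Sox3+ cells ran from 3.52e-10 to 0.0454 for Zbtb16, from 6.50e-05 to 0.101 for Foxo1, from 0.00101 to 0.185 for Foxo3, from 0.0132 to 0.931 for Sall4 and from 0.0142 to 0.479 for Utf1, with both the Foxo1 and the Foxo3 call lost without the library block. Against Gfra1+ cells it ran from 5.39e-09 to 0.0538 for Zbtb16, from 7.35e-05 to 0.315 for Sall4, from 0.0167 to 0.431 for Foxo3 and from 0.00149 to 0.531 for Utf1. In that comparison 15 of 78 alternative values gained a call and 1 lost it, and the gains named here are only a part.

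**Figure D2:**
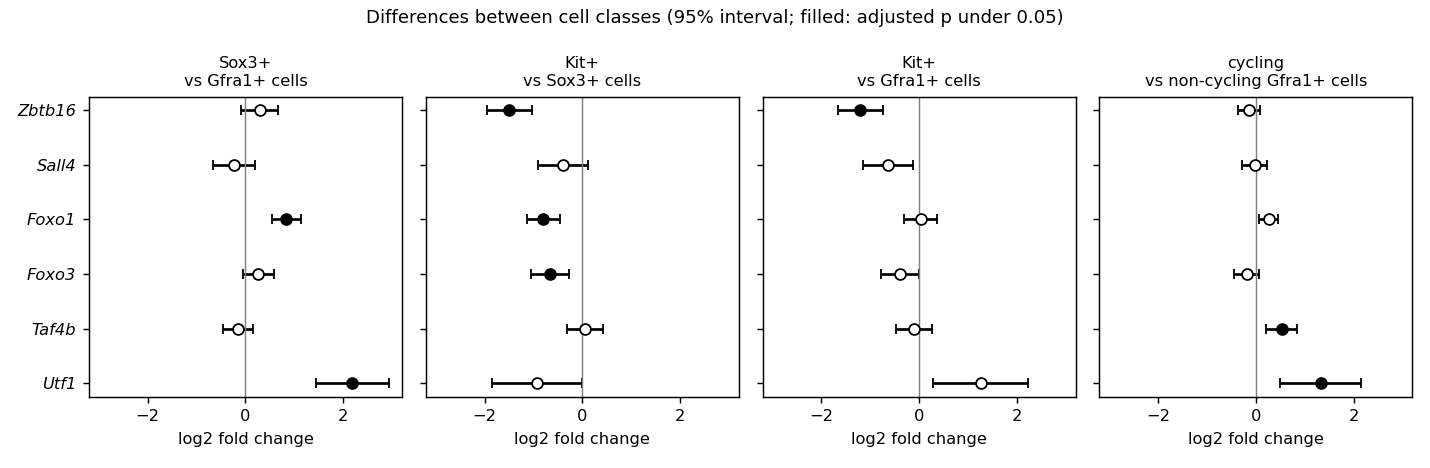
Log2 fold change (x axis) of each gene (rows) in 4 class comparisons, each fitted with library as a block over 4 libraries. Bars are 95% intervals and filled points have an adjusted p under 0.05; Utf1 lies at 2.19 and Foxo1 at 0.83 for Sox3+ against Gfra1+ cells, and Zbtb16 at -1.49 and -1.21 in the Kit+ comparisons.

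Within Gfra1+ cells, those with at least 3 of 8 cycling genes (such as Mki67 and Top2a) above the level of 2 were set against the rest. Cycling cells were deeper in each library, with medians of 8362, 10716, 27587 and 44467 UMIs against 6087, 8138, 22497 and 24425. The part of depth in this split was not tested. Taf4b stood at 53.3, 82.6, 72.1 and 73.4 CPM in cycling cells and at 52.9, 75.1, 36.4 and 47.9 in non-cycling cells. It was higher by 0.52 on the log2 scale (SE 0.15, adjusted p = 0.0176) and in 4 of 4 libraries. The ratios were 1.01 and 1.10 in CTRL 1 and BU 1, and 1.98 and 1.53 in CTRL 2 and BU 2, so both libraries of experiment 1 differed by little. Utf1 stood at 11.7, 5.40, 5.65 and 4.60 in cycling cells against 6.47, 3.51, 1.99 and 1.04 in non-cycling cells. The latter rest on 11, 5, 3 and 4 UMIs, and the difference was 1.32 (SE 0.39, adjusted p = 0.0220). In this comparison 26.6% of 11587 genes were called, 14% higher and 12.6% lower, beside 2 of 6 members. Foxo1 differed by 0.26 (interval 0.06 to 0.46, adjusted p = 0.0529), higher in 4 of 4 libraries, and Zbtb16, Sall4 and Foxo3 by -0.14, -0.02 and -0.19, with adjusted p of 0.263 to 0.902.

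Non-cycling Gfra1+ cells held 2372, 1213, 9791 and 3782 CPM of spermatid markers against 988, 628, 812 and 899.8 in cycling ones, and 11 of 12 spermatid markers were called lower in cycling cells. Somatic markers summed to 59.4 to 667 in non-cycling and to 29.7 to 37.0 in cycling cells. Without the marker-bearing cells Taf4b (0.33, adjusted p = 0.0131) and Utf1 (1.16, adjusted p = 0.0220) were still called, and Zbtb16 (-0.35, adjusted p = 0.000158), Sall4 (-0.24, adjusted p = 0.0190) and Foxo3 (-0.30, adjusted p = 0.0383) were called lower in cycling cells. The share of all genes called under that filter is not given here, so the added calls cannot be read as particular to these genes. The Taf4b call was lost with DESeq2 (adjusted p = 0.0925), without CTRL 2 (0.41, adjusted p = 0.0779) and without BU 2 (0.37, adjusted p = 0.194), and the Utf1 call with DESeq2 (adjusted p = 0.138) and without BU 2 (0.95, adjusted p = 0.207). Over all alternatives the adjusted p ran from 0.000218 to 0.269 for Taf4b, from 0.00356 to 0.271 for Utf1, from 0.000158 to 0.815 for Zbtb16, from 0.0190 to 0.996 for Sall4 and from 0.0383 to 0.758 for Foxo3. The upper ends for Taf4b and Utf1 come from settings not named here, in which these calls were lost as well.

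In BU against CTRL, Utf1 was the member with the largest difference. Over all passing cells it stood at 38.8 and 19.99 CPM in CTRL 1 and 2 and at 10.3 and 5.35 in BU 1 and 2, a mean of 29.4 ± 13.3 against 7.84 ± 3.53 (SD, n = 2). Each BU library lay below both CTRL libraries, and the CTRL to BU ratio was 3.75 in experiment 1 and 3.74 in experiment 2. How many of all genes separate the groups in this way was not counted. Such separation, here and for other members and cell sets below, is therefore a description only. In the main test, with condition as the only term, the log2 difference was -1.89 (SE 0.58, adjusted p = 0.885), and 0 of 17354 genes (0%) passed in edgeR, with 926 at an unadjusted p under 0.05 and 112 passing in DESeq2. The experiment numbers were taken to pair the libraries. With the experiment as a block the Utf1 difference was -1.88 (SE 0.26, adjusted p = 0.0298). Utf1 was 1 of 6 members called, against 1.49% of genes called, 0.847% being called lower and 0.64% higher. Its adjusted p over the alternatives ran from 4.15e-05 to 1.00.

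Foxo1 was the next in size. It stood at 221 and 139 in CTRL 1 and 2 and at 123 and 71.3 in BU 1 and 2 over all passing cells, a mean of 179.7 ± 57.7 against 97.3 ± 36.8 (SD, n = 2), and the CTRL to BU ratio was 1.79 and 1.95 in the 2 experiments. Both BU libraries lay below both CTRL libraries. The log2 difference was -0.86 (SE 0.44, adjusted p = 0.9995), and with the block -0.87 (SE 0.19, adjusted p = 0.0750). With the block and without the shared barcodes it passed (-0.99, adjusted p = 0.00973), as it did with the block and without the marker-bearing cells (-0.93, adjusted p = 0.0226). Those 2 fits called 1461 and 1236 genes, against 258 with the block alone. The adjusted p of Foxo1 over the alternatives ran from 0.00973 to 1.00.

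The other 4 genes did not pass with or without the block. Over all passing cells Zbtb16 stood at 213 and 190 in CTRL and at 191 and 103 in BU (log2 difference -0.43), and Sall4 at 137 and 105 against 124 and 82.4 (-0.21). Foxo3 stood at 82.1 and 53.5 in CTRL and at 54.8 and 37.2 in BU (-0.54). For these 3 genes the level was lower in BU within both experiments. Taf4b, at 44.6 and 54.1 against 74.0 and 57.2, was the member with a positive difference (0.44, interval -0.36 to 1.24). Both BU libraries lay above both CTRL libraries, again without a count of such separation over all genes.

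The make-up of the libraries moved with treatment, and in such sums fewer cells of a type and less RNA per cell cannot be told apart. Sox3+ cells were 41.9% and 49.3% of passing cells in CTRL 1 and 2 and 12.2% and 10.1% in BU 1 and 2, and Gfra1+ cells 14.0% and 11.96% against 36.3% and 35.9%. Spermatid markers summed to 3576 and 19871 CPM in CTRL and to 1336 and 11144 in BU, with a UMI of all 12 markers in each library, and somatic markers to 68.8 and 337 against 48.6 and 126. With the block and without the cells bearing those markers, the Utf1 difference was -2.01 (adjusted p = 0.00529). That fit called 1236 genes, against 258 with the block alone.

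Within Sox3+ cells Utf1 levels were also lower in both BU libraries, with CTRL to BU ratios of 2.86 and 2.65 in the 2 experiments and no overlap between the groups. The log2 difference was -1.52 (SE 0.44, adjusted p = 0.456), where 0 of 13533 genes (0%) passed in edgeR, 1084 had an unadjusted p under 0.05 and 50 passed in DESeq2. With the block it was -1.48 (SE 0.29, adjusted p = 0.0251), 1 of 6 members against 1.38% of genes called, 0.517% lower and 0.865% higher. It also passed without a filter on low counts (-1.56, adjusted p = 0.0178), where 186 genes were called. The fit without CTRL 2 set 1 CTRL library of kit version 2 against BU libraries of both versions. CTRL is there assumed to vary like the BU pair, and Utf1 differed by -1.98. Its adjusted p over the alternatives ran from 0.00350 to 0.999. Other genes of the Sox3+ class moved with BU too. Progenitor markers summed to 737 and 629 CPM in CTRL 1 and 2 and to 333 and 320 in BU 1 and 2, and with the block 3 of 5 tested were called lower, at a median of -1.22. With the block 2 of 10 stem, 3 of 8 differentiating and 2 of 8 cycling markers were called higher and 4 of 12 spermatid markers lower. Cycling cells made up 44.3% and 52.5% of the Sox3+ cells of CTRL 1 and 2 and 83.3% and 70.3% of those of BU 1 and 2. The part of these shifts in the Utf1 difference was not tested.

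In the same Sox3+ sums Foxo1 had CTRL to BU ratios of 1.56 in both experiments and a log2 difference of -0.66 (interval -1.34 to 0.02, adjusted p = 0.638), or -0.65 with the block (adjusted p = 0.131). Zbtb16, Sall4, Foxo3 and Taf4b differed by -0.33, -0.22, -0.51 and 0.10 there, with adjusted p of 0.760 to 0.972.

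In Gfra1+ cells no member passed with or without the block, against 0% and 0.609% of 12981 genes called (0.254% higher and 0.354% lower with the block), and DESeq2 called 4 genes, with 448 at an unadjusted p under 0.05 in edgeR. Utf1 differed by -0.47 (interval -1.77 to 0.83), Foxo1 by -0.20 (interval -1.28 to 0.89) and Foxo3 by -0.19 (interval -1.14 to 0.75). Intervals in this paragraph are from the fit without the block, in which the difference between experiments counts as spread. The common biological coefficient of variation in Gfra1+ cells was 0.349 without the block and 0.188 with it. Taf4b, at 53.1 and 58.0 in CTRL and 81.2 and 68.4 in BU, had a fitted log2 difference of 0.52 (interval -0.12 to 1.17, adjusted p = 0.9999). Cycling cells made up 39.5% and 53.0% of the Gfra1+ cells of CTRL 1 and 2 and 77.1% and 69.8% of those of BU 1 and 2. In non-cycling Gfra1+ cells alone Taf4b stood at 52.9 and 36.4 in CTRL and at 75.1 and 47.9 in BU, and no member passed there. The part of the cycling shift in the BU differences was not tested. Zbtb16 had BU to CTRL ratios of 1.06 and 0.720, on either side of 1, and Sall4 of 0.821 and 0.846. In Kit+ cells no member passed with or without the block either, against 0% and 2.92% of 9234 genes (2.78% lower with the block). In edgeR 997 genes had an unadjusted p under 0.05, and DESeq2 called 98. Without CTRL 2 the Sall4 difference was -1.89, with CTRL then 1 library of 10 Kit+ cells. The spread of that library is assumed to be that of the BU pair, and it holds 1 kit version against both versions in BU. The cells of CTRL there are the 10 and 15 described above.

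The difference between the BU changes of Sox3+ and Gfra1+ cells was tested as an interaction, in which 3 of 13273 genes (0.0226%) passed and no member did. For Utf1 the log2 change in Sox3+ cells minus that in Gfra1+ cells was -1.15 (interval -2.20 to -0.09, adjusted p = 0.739), and for Foxo1 it was -0.49 (interval -0.90 to -0.09, adjusted p = 0.699). Foxo1 passed without the marker-bearing cells (-0.50, adjusted p = 0.0482), a fit in which 310 genes were called. Without CTRL 1 its log2 value was -0.83, with CTRL then 1 library of 1 kit version that is assumed to vary like the BU libraries of both versions. Its adjusted p over the alternatives ran from 0.00241 to 1.00.

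**Figure D3:**
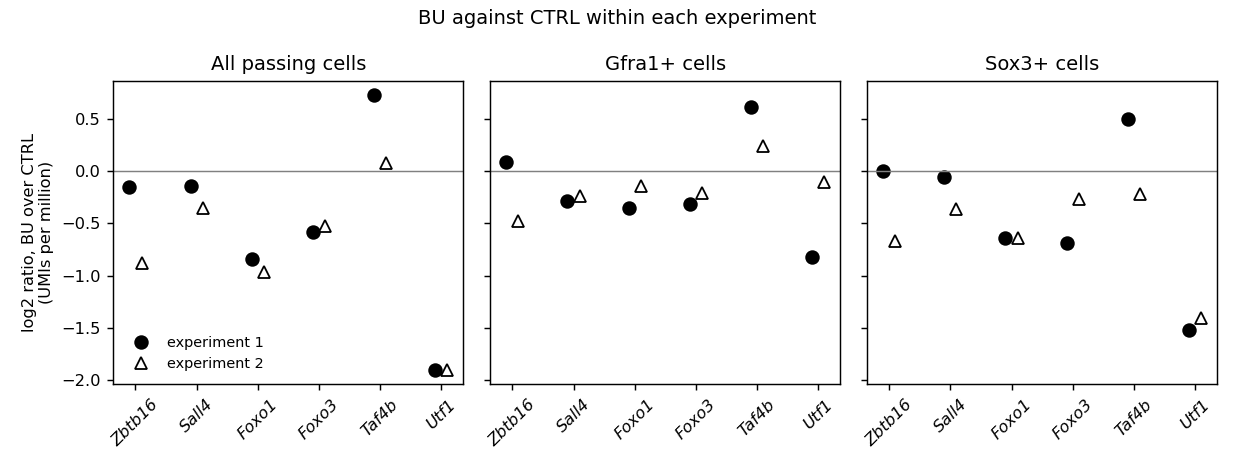
Log2 ratio of BU over CTRL levels (y axis) of each gene (x axis) within experiment 1 (filled circles) and experiment 2 (open triangles), in all passing, Gfra1+ and Sox3+ cells; each point is 1 pair of libraries, with no error bar. Utf1 lies at -1.91 and -1.90 in all passing cells and at -1.52 and -1.41 in Sox3+ cells, while Zbtb16 in Gfra1+ cells lies on either side of 0.

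To compare shares of cells at 1 depth, each cell was thinned to 5000 UMIs without the cells below that depth, which kept 2825, 1928, 1006 and 1169 of the passing cells. Utf1 had a UMI in 20.7%, 7.50%, 14.5% and 8.06% of Sox3+ cells and in 3.78%, 1.55%, 1.55% and 1.77% of Gfra1+ cells. The exact 95% binomial interval was 18.5% to 23.1% in CTRL 1 Sox3+ cells and 2.08% to 6.27% in its Gfra1+ cells, and these intervals cover counting error only. Cells with over 5% spermatid-marker UMIs served as a type that should lack these factors: Utf1 had a UMI in 1 of 32 of them in CTRL 1 and in 0 of 7, 82 and 54 in the others. The upper limits that a count of 0 allows there were 42.9%, 3.66% and 5.56%, so the Gfra1+ shares of 1.55% to 3.78% are not distinguishable from that background at this depth. Without thinning, Utf1 had a UMI in 33.3%, 16.3%, 50.9% and 26.6% of Sox3+ cells and in 5.54%, 4.80%, 9.70% and 10.1% of Gfra1+ cells.

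Foxo1 had a UMI in 70.4%, 55.4%, 61.5% and 42.7% of Sox3+ cells, in 53.2%, 46.3%, 31.8% and 27.9% of Gfra1+ cells and in 0% to 14.3% of spermatid-rich cells. Zbtb16 was found in 39.7% to 61.9% of Gfra1+ and 42.7% to 67.3% of Sox3+ cells, against 0% to 28.6% of spermatid-rich ones, where the highest share is 2 of 7 cells. Foxo3 departed from this pattern. It had a UMI in 25.0%, 42.9%, 10.98% and 18.5% of spermatid-rich cells, against 31.4%, 26.7%, 20.2% and 18.8% of Gfra1+ cells, and its level there was 52.4, 116, 44.2 and 54.6 CPM, so spermatid-rich cells are no background for Foxo3. A UMI of at least 1 of the 6 genes was present in 95.1%, 93.2%, 85.3% and 77.2% of Gfra1+ cells and in 96.7%, 90.4%, 95.6% and 86.3% of Sox3+ cells, against 31.3%, 57.1%, 23.2% and 24.1% of spermatid-rich cells. Cells with none of the 3 class genes above the level, 28.8% to 38.2% of each library, held at least 1 member in 94.9%, 90.6%, 48.9% and 57.9% of cases, which in experiment 2 was a smaller share than in either class. That group also held 7683 and 2966 CPM of spermatid markers in CTRL 1 and BU 1, but 79081 and 32170 in CTRL 2 and BU 2, and the part of these markers in the smaller share was not tested.

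**Figure D4:**
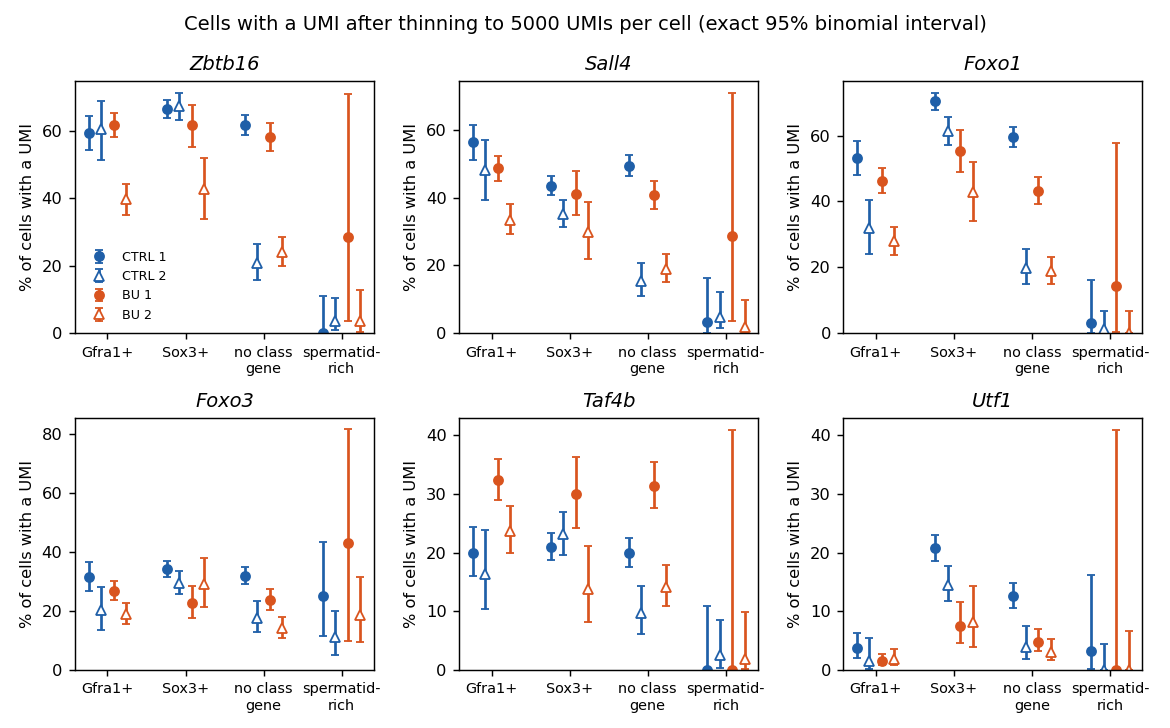
Percent of cells with a UMI of each gene (y axis) after thinning to 5000 UMIs per cell, in 4 sets of cells (x axis) of each library; blue marks CTRL and orange BU, filled circles experiment 1 and open triangles experiment 2, and bars are exact 95% binomial intervals. Utf1 lies at 7.50% to 20.7% in Sox3+ and 1.55% to 3.78% in Gfra1+ cells, and Foxo3 keeps 10.98% to 42.9% in spermatid-rich cells.

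Genes that work with the 6 factors were followed as lists. Of 14 other genes listed as general to spermatogonia, 6 were higher and 1 lower in Sox3+ than in Gfra1+ cells, with a median of 0.49 against -0.04 over all genes. For this and the other lists in that comparison, 5.88% of all genes were called higher and 7.62% lower. The germ cell transcription factor gene Sohlh1 (1.49, adjusted p = 0.000757), the RNA-binding protein genes Nanos3 (1.44, adjusted p = 0.00192) and Lin28a (1.36, adjusted p = 0.000403) were higher, and the integrin gene Itga6 was lower (-0.57, adjusted p = 0.0129). The paper counts Sohlh1 as progenitor-associated and Pou5f1 as a progenitor marker, so this list is not free of genes that mark a class. Of 17 genes for NuRD and demethylase partners of SALL4 and PLZF, 2 were higher and 2 lower, among them the demethylase gene Kdm1a (0.75, adjusted p = 0.0112) and the NuRD ATPase gene Chd4 (-0.88, adjusted p = 0.000309). Of 16 TFIID subunit genes 0 passed in either direction, beside the uncalled Taf4b, at a median of -0.01.

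Upstream of FOXO, 2 of 20 PI3K-AKT-mTORC1 genes were higher in Sox3+ cells: Ddit4, an mTORC1 inhibitor that also stands in the progenitor list, by 2.06 (adjusted p = 0.00109) and Akt1 by 1.16 (adjusted p = 0.000784). Of those 20 genes 1 was lower. Of 18 genes known as FOXO targets 4 were higher and 4 lower, at a median of 0.09, beside 5.88% of all genes higher and 7.62% lower. The ubiquitin ligase gene Fbxo32 (1.45, adjusted p = 0.00150) and the cell cycle inhibitor gene Cdkn1b (0.98, adjusted p = 0.0210) were higher, and Trib1 (-2.28, adjusted p = 0.000299) and the GDNF receptor gene Ret (-1.53, adjusted p = 0.000681), which is also in the stem list, were lower. In Kit+ against Sox3+ cells, 6 of the 18 target genes were lower and 1 higher, beside 6.81% of all genes lower and 7.58% higher, including Cdkn1b (-2.93, adjusted p = 0.00354) and Txnip (-1.43, adjusted p = 0.00304). In Kit+ against Gfra1+ cells, where Foxo1 was not called, 6 of the 18 were lower and 2 higher. There 11.6% of all genes were lower and 11.8% higher. Of 6 tested relatives of the 6 genes, 2 were higher and 2 lower in Sox3+ than in Gfra1+ cells: Sall1 (1.60, adjusted p = 0.00415) and Zbtb32 (0.65, adjusted p = 0.0175) were higher, and Foxo6 (-1.31, adjusted p = 0.0105) and Sall3, which lay under 10 CPM and is named after its values were seen, were lower. In cycling against non-cycling Gfra1+ cells, 7 of 15 tested TFIID genes were higher and 0 lower, among them Taf3 (0.50, adjusted p = 0.00473) and Taf1 (0.49, adjusted p = 0.00116), beside 14% of all genes higher and 12.6% lower. Among other lists, 4 of 17 NuRD and demethylase genes were higher there and 0 lower, and 7 of 14 other spermatogonial genes higher and 2 lower. The FOXO target list went the other way, with 2 of 17 tested genes higher and 5 lower. Its median was -0.24 against 0.04 over all genes. Non-cycling cells held the spermatid and somatic marker UMIs given above.

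With the block, Fbxo32 was lower and the cell cycle inhibitor gene Cdkn1a higher in BU than in CTRL over all passing cells (-1.95, adjusted p = 0.0297, and 2.40, adjusted p = 0.0200), in Gfra1+ cells (-1.23, adjusted p = 0.0358, and 2.23, adjusted p = 0.00109) and in Sox3+ cells (-1.23, adjusted p = 0.0245, and 2.39, adjusted p = 0.00156). They were the only ones of the 18 target genes called in those 3 comparisons, and without the block 0 of them passed. Fbxo32 and Cdkn1a moved in opposite directions, and whether FOXO factors have a part in either change was not tested. Over all passing cells Lin28a (-1.75, adjusted p = 0.0289), Nanos3 (-1.69, adjusted p = 0.0289) and Sohlh1 (-1.01, adjusted p = 0.0466) were also lower after BU with the block. Sohlh1 is progenitor-associated in the paper, and Sox3+ cells were a smaller share of the BU libraries. The part of that share in these differences was not tested. The median over the 6 members was -0.51 in that fit, beside 0.04 over all genes.

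Over the 12 class sums, centred within each library, the pattern of each gene was set against 6835 other genes (6836 for Utf1) of at least 20 CPM. Among the genes most like Foxo1 were Stau1 (r = 0.989), Phb (r = 0.969) and Lin28a (r = 0.964), and among those most like Utf1 were Park7 (r = 0.988) and Timm13 (r = 0.980). For Zbtb16 they included Klf7 (r = 0.995) and Sys1 (r = 0.995), for Sall4 Cops3, Rbpms2 and Nup107 (r = 0.978 to 0.985), for Foxo3 Klhdc3, Lmbr1l and Specc1 (r = 0.977 to 0.980) and for Taf4b Plaa, Ppp2r1b and Ik (r = 0.940 to 0.957). Among the 6 genes themselves r ran from 0.306 for Sall4 and Utf1 to 0.916 for Zbtb16 and Foxo3. The sums share libraries and depth and include the small Kit+ sums of CTRL, so these are descriptions of likeness only.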

How the data were processed

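For 4 libraries, the authors deposited raw UMI counts for each cell, made with Cell Ranger 3.0.2 per the file headers and aligned to mm10 per the study's methods, while the submitters' processing notes list GRCm39. The files list 27998 genes in experiment 1 and 31053 in experiment 2. Doublets were not called here; cells above the level for several class genes (96 to 264 per library) entered no single class. UMIs were summed per library and class, since cells are not replicates and n = 2 libraries per group limits precision. Sums were tested with edgeR 4.0.16 in R 4.3.3 (TMM, filterByExpr, quasi-likelihood test, Benjamini-Hochberg adjustment over all genes tested, threshold 0.05). BU against CTRL had condition as its only term, and class comparisons had library as a block. Standard errors were derived from the F statistic, and differences are on the log2 scale.

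The titles number the libraries 1 and 2, and the labels give a kit version for each. The paper describes independent repeats, with the libraries of each repeat sequenced together in a lane. The numbers were therefore taken to pair the libraries by experiment. Deviations from group means had a correlation of 0.775 over 17361 genes, and the first principal component (70.8% of variance) separated the experiments. Alternatives were the experiment as a replicate block, no block, DESeq2 1.42.0, no filter on low counts, other cell filters and class definitions, and leaving out each library. Leaving out shared barcodes was chosen after they were seen, and the plan named the marker filter without its thresholds. The members, lists and tests were chosen with earlier results of these data known. Named genes are the 6 members, the 3 genes most like each, and up to 3 genes in each direction per list with the largest called change and at least 10 CPM. Some genes that this rule names are not reported here. The fits were run on simulated data, where the BU fit without the block made no calls once an experiment effect was added and the fit with it did. That effect was put in by design with a set spread, so the outcome says nothing about the BU calls reported here. Shares used Python 3.11.15 and scipy 1.17.1. Of the members' promoters, those of Foxo1 and Utf1 are printed.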

Additional observations from a re-analysis of the deposited data

How the results depend on the processing

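With n = 2 libraries per group, and Kit+ sums of 10 and 15 cells in CTRL, depth and replication limit what could be called. Of 724 values of the 6 genes under alternatives, 628 kept their direction and side of the threshold, 41 gained and 15 lost a call, and 40 changed sign, 0 of them a called value. The replicate block changed only the 2 Utf1 calls given above among the BU comparisons of members. The causes were not tested.

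For BU against CTRL, the count of genes called was 0 in all 4 cell sets. Over all passing cells it was 258 with the block, 112 with DESeq2, 1461 with the block and without shared barcodes, 1236 with the block and without marker-bearing cells, and 0 to 96 leaving out 1 library. In Gfra1+ cells these were 79, 4, 18, 4 and 0 to 5, and 25 without a filter on low counts. In Sox3+ cells they were 187, 50, 514, 109 and 1 to 304, and 186 without the filter. In Kit+ cells they were 270, 98, 275, 3 and 74 to 2006, and 932 without the filter.

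Sox3+ against Gfra1+ cells gave 1791 genes, 729 without the library block, 4476 without marker-bearing cells, 3063 with every cell above the level and 682 to 3622 leaving out 1 library. Kit+ against Sox3+ cells gave 1910, then 208, 3571, 1171 and 165 to 3212, and 3051 without the filter. Kit+ against Gfra1+ cells gave 3114, then 1253, 5132, 4911 and 750 to 5441. Cycling against non-cycling cells gave 3080, 401 without the block, 1703 with DESeq2 and 1287 to 3259 leaving out 1 library. The interaction gave 3, and 8 with DESeq2, 122 without the filter, 310 without marker-bearing cells, 266 with every cell above the level, 1 with thinned classes and 1 to 426 leaving out 1 library. The median share of cells with a UMI was 29.9% thinned and 62.4% not thinned.

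Sign changes touched uncalled values. In Kit+ cells the BU difference of Taf4b was -0.49 without marker-bearing cells, -0.049 without the top 5% of cells by UMIs and -0.47 with the block and without marker-bearing cells, and that of Foxo3 was 0.28 with thinned classes. Against Sox3+ cells, Taf4b in Kit+ cells was -0.19 without the filter, -0.083 at under 10% mitochondrial UMIs and -0.018 with every cell above the level. Against Gfra1+ cells, Foxo1 in Kit+ cells was -0.0072 without the block, -0.14 without the filter, -0.17 at under 10% mitochondrial UMIs and -0.059 with thinned classes, and Taf4b was 0.015 with thinned classes. The Sall4 interaction was 0.071 with thinned classes.

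Leaving out 1 library, the BU difference over all passing cells ran from -0.71 to 0.074 for Sall4. In Gfra1+ cells it ran from -0.41 to 0.22 for Zbtb16, -0.42 to 0.16 for Sall4, -0.60 to 0.41 for Foxo1, -0.51 to 0.26 for Foxo3 and -0.94 to 0.24 for Utf1, and in Sox3+ cells from -0.15 to 0.32 for Taf4b. In Kit+ cells it ran from -1.01 to 0.99 for Zbtb16, -1.89 to 0.078 for Sall4, -0.11 to 0.43 for Taf4b and -2.39 to 1.94 for Utf1. These BU fits had no term for the experiment, so the group left with 1 library held 1 kit version against both versions in the other. In Gfra1+ cells, Sall4, Foxo1, Foxo3 and Utf1 levels were lower in BU than in CTRL within both experiments. The part of the kit in the sign changes was not tested. Kit+ against Sox3+ cells gave -0.24 to 0.17 for Taf4b, Kit+ against Gfra1+ cells -0.11 to -0.0028 for Foxo1, cycling against non-cycling cells -0.18 to 0.11 for Sall4, and the Sall4 interaction ran from -0.38 to 0.20.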
